A study of Mus musculus with 11 samples.

Results

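Transition substitutions, which exchange a purine for a purine (A and G) or a pyrimidine for a pyrimidine (C and T), were followed through the exome variants of mouse pancreatic tumours. They were chosen as the records with a single reference base and a single variant base that form the pair A and G or C and T in either direction, with repeats of a variant under a second gene model dropped. They numbered 423 of 735 listed variants and of 706 substitutions. The other 283 substitutions were transversions, which exchange a purine for a pyrimidine or the reverse.

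The variants came from 11 pancreatic ductal adenocarcinomas that arose in acinar cells, the enzyme-secreting cells of the pancreas. All mice carried Ptf1aCreER, a tamoxifen-activated Cre recombinase driven from an acinar gene, and Rosa26LSL-tdTomato/LSL-tdTomato, a Cre-activated red fluorescent reporter, and were given 5 mg tamoxifen by gavage on each of 3 consecutive days at 8 to 10 weeks of age, then aged until morbidity. The 7 KT tumours had the common engineered alleles alone, and the 4 KPT tumours also had Trp53fl/fl, floxed alleles of the p53 tumour suppressor gene. Each tumour is 1 value below, and nothing in the labels states whether each came from a separate animal, so the spread between tumours is all that the p-values measure.

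Transitions are the commonest substitutions in mammalian genomes. C-to-T changes arise readily where a methylated cytosine is followed by guanine (a CpG) and loses its amino group, which turns it into thymine. On the opposite strand the same event reads as G to A, so the 4 directions fold into the classes C:G to T:A and T:A to C:G. The genetic code ties transitions to a limited set of exchanges, because the third codon base can usually undergo a transition without changing the residue.

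Reference sequence was at hand for 7 of the 423 sites, those within RefSeq windows around annotated gene starts (build GRCm38.p6), and the window held the listed reference base at all 7. Of these sites 5 are shown, since they illustrate both classes and both CpG states. The changed base is in capitals, and each line runs 5′ to 3′ along the strand given.
Necap1, chr6:122874586-122874606, plus strand: atatgagtccGtgctgtgtgt
Ptgis, chr2:167221282-167221302, plus strand: tgagtggacaCgatcttgggc
Mcpt8, chr14:56085159-56085179, minus strand: gctcctggtcCtcctggtggc
Hint2, chr4:43656396-43656412, minus strand: ggcttgcgcgCtgcgcg
Olfr895, chr9:38268508-38268528, plus strand: cttacagatgTcactcaatgc

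The first pair were CpG sites, and the other 5 of the 7 were not. In Necap1, whose product acts in clathrin-mediated endocytosis, the capital G became A in KT tumour 1, on 13 of 23 reads, and gave V10M. Residues are numbered from the start of each protein. In Ptgis, the gene of prostacyclin synthase, where the window is that of the overlapping Gm52569, the capital C became T in KT tumour 1, on 5 of 14 reads. Ptgis is read from the opposite strand, where the change was G to A and gave R198H. The Necap1 CpG joins the last base of a codon to the first base of the next, and therefore cannot be recognised from the codon alone. Mcpt8, a protease gene of basophils, had L7F in KPT tumour 2, on 19 of 36 reads. Hint2, which encodes a mitochondrial nucleotide-binding protein, had A13V in KT tumour 2, on 6 of 12 reads. The olfactory receptor gene Olfr895 had S2P in KT tumour 3, a T-to-C change on 26 of 59 reads.

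KT tumours held between 0 and 154 transitions with a median of 46, and KPT tumours 1 to 4 held 11, 21, 7 and 22. KT tumours 1, 5, 3 and 4, with 154, 93, 60 and 46, lay above every KPT tumour, and KT tumours 2, 6 and 7, with 5, 4 and 0, lay below every KPT tumour. KT tumours averaged 51.7 ± 56.9 (SD, n = 7) and KPT tumours 15.25 ± 7.41 (SD, n = 4). The gap of 36.5 did not exceed the tumour-to-tumour spread (two-sided exact permutation over 330 splits, p = 0.255, adjusted p = 0.743 over 6 comparisons of the genotypes). Without KT tumour 1 the difference was 19.4, and on the log2 scale with a pseudocount of 1 it was 0.43. KT tumour 7 had 0 transitions among 3 substitutions, which allows a share of up to 56.2% (Wilson), and it gives no value for the shares within transitions.

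**Figure D1:**
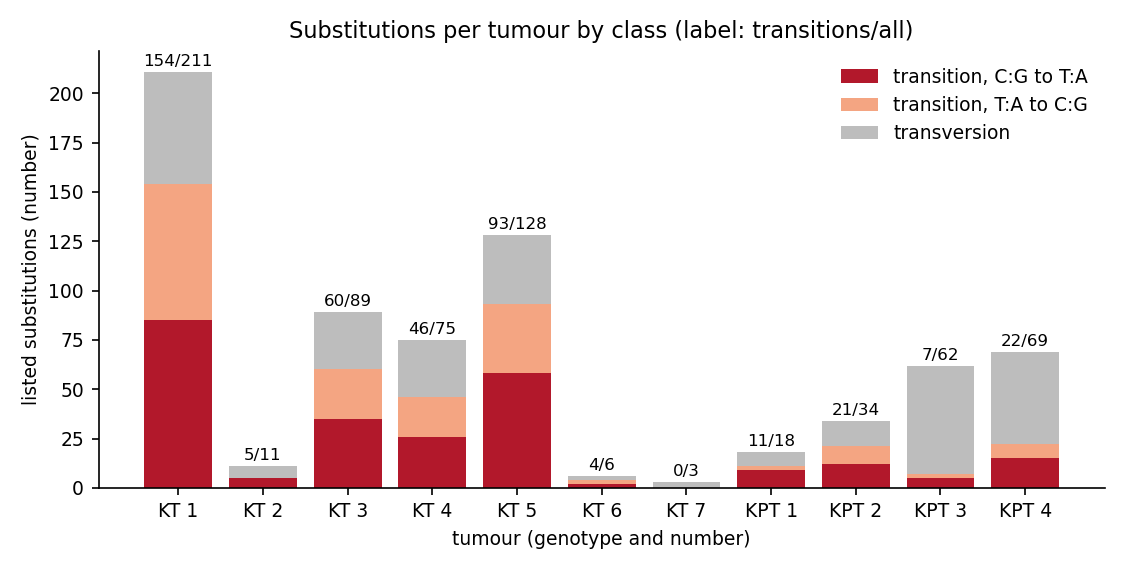
Number of listed substitutions per tumour (vertical axis) for 7 KT and 4 KPT tumours, stacked as C:G to T:A transitions, T:A to C:G transitions and transversions, with 1 tumour per bar. Transitions make up 154 of 211 substitutions in KT tumour 1 but 7 of 62 in KPT tumour 3 and 22 of 69 in KPT tumour 4.

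Transitions were 73.0% of substitutions in KT tumour 1 (95% Wilson interval 66.6% to 78.5%), 72.7% in KT tumour 5 (64.4% to 79.6%), 67.4% in KT tumour 3 and 61.3% in KT tumour 4. KT tumour 2 had 45.5% of 11 substitutions and KT tumour 6 had 66.7% of 6. They were 61.1% in KPT tumour 1 and 61.8% in KPT tumour 2. KPT tumours 3 and 4 were lower than the other KPT tumours, at 11.3% (5.58% to 21.5%) and 31.9% (22.1% to 43.6%), so that the share was as high in the first pair of KPT tumours as in KT tumour 4. The median depth at transitions was 10 reads in KPT tumour 3 and 19 in KPT tumour 4, against 35 and 23 in KPT tumours 1 and 2. It was 14 and 20 reads in KT tumours 6 and 5, where the shares were 66.7% and 72.7%. The median depth at transversions was 11 and 12 reads in KPT tumours 3 and 4, and 43 and 17 in KPT tumours 1 and 2. In KT tumours 6 and 5 it was 21.5 and 27 reads. The part of depth in these shares was not tested. Such intervals cover counting error only, and neighbouring variants may not be independent.

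C:G to T:A changes outnumbered T:A to C:G changes, with 252 against 171 of the 423 transitions (59.6%, 54.8% to 64.1%). Counted over the protein-altering transitions that the genetic code allows, with every codon weighted alike, the C:G to T:A share is 52.1%. The share was above 50% in 9 of the 10 tumours with a transition and at 50% in KT tumour 6, which had 4. In KT tumours it had a lowest value of 50%, a median of 57.4% and a highest value of 100% (KT tumour 2, with 5 transitions), and in KPT tumours 1 to 4 it was 81.8%, 57.1%, 71.4% and 68.2%. The ranges overlapped. KT tumours averaged 63.7% ± 18.2 (SD, n = 6) and KPT tumours 69.6% ± 10.2 (SD, n = 4), a gap below the tumour-to-tumour spread (p = 0.605 by two-sided exact permutation, adjusted p = 0.876). Without KT tumour 2 the difference of -5.91 points became -13.2 points (exact permutation p = 0.0397, adjusted p = 0.238). It became -10.1 points without KPT tumour 2, -3.16 points without KT tumour 6 and -1.85 points without KPT tumour 1.

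On the genome strand the 2 readings of each class were nearly even: 119 G to A against 133 C to T, and 85 A to G against 86 T to C. Along the coding strand the purine-first reading was more frequent, with 149 G to A against 103 C to T and 107 A to G against 64 T to C. G to A thus made up 59.1% of C:G to T:A changes (53.0% to 65.0%), beside 52.4% in the genetic code, and A to G made up 62.6% of T:A to C:G changes (55.1% to 69.5%), beside 53.4%. G to A led C to T in 6 of 10 tumours, equalled it in 1 and trailed it in 3. A to G led T to C in 7 of 10, equalled it in 2 and trailed it in KPT tumour 4, with 2 against 5. The code values assume equal codon use, so the distance from them was not tested.

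Arginine codons that begin with CG carry a CpG in their first 2 bases, and a transition there can give only cysteine, tryptophan, glutamine, histidine or a stop. Of the 423 transitions 46 were of this kind (10.9%, 8.25% to 14.2%), beside 6.61% in the genetic code. They gave glutamine in 16, histidine in 15, cysteine in 9, tryptophan in 3 and a stop in 3. The reverse exchanges to arginine numbered 14 from glutamine, 9 from histidine, 5 from cysteine and 2 from tryptophan. A further 36 C:G to T:A changes lay at a CpG inside another codon: alanine to valine in 12, proline to leucine in 9, threonine to methionine in 9 and serine to leucine in 6. Together 82 of the 252 C:G to T:A changes had a CpG within the codon (32.5%, 27.1% to 38.5%), beside 19.0% in the code. A CpG that spans codons, as in Necap1, is not in this count.

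The arginine CGN share was 11.04%, 20%, 13.3%, 8.70%, 8.60% and 0% in KT tumours 1 to 6 and 18.2%, 14.3%, 14.3% and 9.09% in KPT tumours 1 to 4, with overlapping ranges. KT tumours averaged 10.3% ± 6.56 (SD, n = 6) and KPT tumours 13.96% ± 3.73 (SD, n = 4), a gap that two-sided exact permutation did not separate from the spread (p = 0.371, adjusted p = 0.743). The gap of -3.68 points was -5.63 points without KT tumour 2, -2.28 points without KPT tumour 1 and -1.63 points without KT tumour 6, which had 0 of 4. The CGN changes with the most variant reads were in KT tumours. AC118710.1 R405H had 66 of 137 reads and was marked as poorly mappable by the authors. Micu3, which encodes a regulator of mitochondrial calcium uptake, had R277C at the edge of an exon, on 53 of 107 reads. Olfr970 R227Q had 47 of 155 reads, Cdh26 R434W, in a cadherin gene, had 36 of 53, and AW551984 R142C had 32 of 65. All but the Cdh26 change, at 66.7%, had a listed allele fraction of 50% or less.

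The transitions gave 417 missense changes, 5 stop codons and 1 lost start codon. All 52 exchanges that a transition can produce in the code were present, and the 10 most frequent made up 167 of the 417 missense changes. Alanine to valine led with 24, in 8 tumours, followed by serine to asparagine and valine to isoleucine with 19 each, and by alanine to threonine and threonine to alanine with 17 each. Alanine to valine and valine to isoleucine each replace a nonpolar residue with a larger nonpolar one. Among the 26 residue pairs the C:G to T:A direction was more frequent in 18, the opposite one in 4, and the directions were equal in 4. The 4 pairs with more T:A to C:G changes each differed by 1 or 2 records, as in asparagine to aspartate with 8 and aspartate to asparagine with 6.

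**Figure D2:**
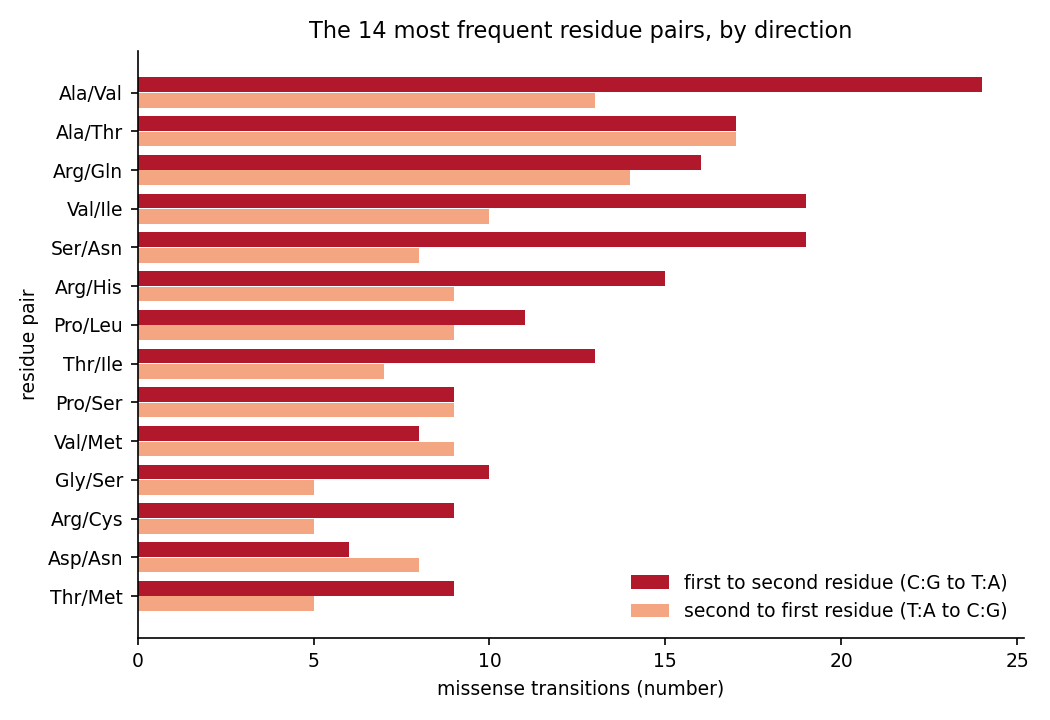
Number of missense transitions (horizontal axis) in each direction for the 14 most frequent residue pairs, pooled over the 10 tumours with a transition, with a dark bar for the C:G to T:A direction and a light bar for its reverse. Alanine to valine reaches 24 against 13 in reverse and serine to asparagine 19 against 8, whereas alanine and threonine exchange evenly at 17 each.

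Residues were put in 5 classes: nonpolar, aromatic, polar uncharged, positive and negative. Transitions crossed a class border in 246 of 417 missense changes (59.0%, 54.2% to 63.6%), beside 67.2% in the code, while transversions did so in 193 of 281 (68.7%, 63.0% to 73.8%), beside 68.1%. The largest stream stayed within the nonpolar class, with 110 changes (26.4%). Polar to nonpolar exchanges numbered 61 and nonpolar to polar 52. Charge changed in 112 (26.9%), towards positive in 54 and towards negative in 58. Arginine was lost in 51 and gained in 39, proline lost in 20 and gained in 18, and glycine lost in 25 and gained in 20.

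Class-changing exchanges made up 55.9% to 75% of missense transitions in KT tumours 1 to 6, and 50%, 71.4%, 100% and 33.3% in KPT tumours 1 to 4. KPT tumour 3, with all 6 of its missense transitions, and KPT tumour 4, with 7 of 21, lay on either side of the whole KT range. KT tumours averaged 62.1% ± 6.58 (SD, n = 6) and KPT tumours 63.7% ± 28.8 (SD, n = 4), with p = 0.876 by two-sided exact permutation (adjusted p = 0.876). Without KPT tumour 3 the difference of -1.58 points turned to 10.5 points, and without KPT tumour 4 it was -11.7 points.

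The BLOSUM62 score, which is higher for residues that replace each other often in related proteins, described how alike the exchanged residues were. A score of 0 or 1 was held by 120 and 107 of the 417 missense transitions (28.8% and 25.7%), and a score of -3 by 39. Transversions had 27.0% at -2 and 9.25% at 0. Within tumours the mean score of transitions exceeded that of transversions by 0.24 ± 0.64 (SD, n = 10), in 7 of 10 tumours (exact two-sided sign-flip p = 0.275, adjusted p = 0.344 over 5 comparisons within tumours), and the same difference over the code is 0.30. Without KT tumour 2 it was 0.10. With records in runs left out (runs of neighbouring variants, described further on), it was 0.81 (exact sign-flip p = 0.00586, adjusted p = 0.0234 over the 4 comparisons that can then be made), with only 1 to 21 transitions left per tumour.

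**Figure D3:**
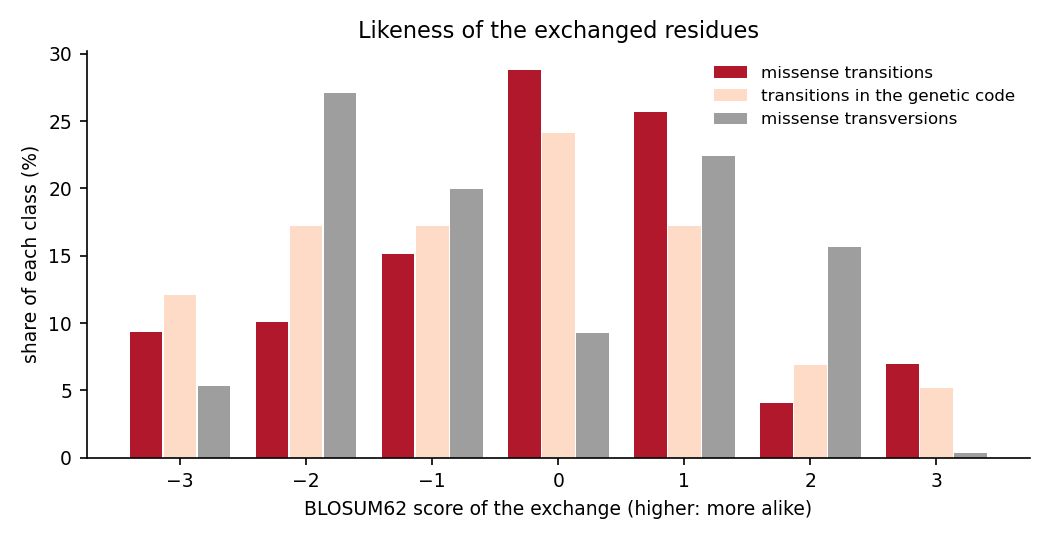
Share of missense transitions, of the transitions possible in the genetic code with equal codon weights and of missense transversions (vertical axis, percent of each class) at each BLOSUM62 score (horizontal axis), pooled over tumours. Transitions peak at 0 (28.8%) and transversions at -2 (27.0%).

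The missense transitions that exchanged the least alike residues, named by score and then by variant reads, included C4382R of the lipoprotein receptor gene Lrp1 in KT tumour 1, on 43 of 60 reads. It replaced a cysteine with arginine by a T-to-C change in the first codon base. Serpinb3c P208L in KT tumour 4 was on 60 of 61 reads, in a protease inhibitor gene with close copies that the authors marked as poorly mappable. The Micu3 and Cdh26 changes above were also among them.

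Codon position differed between the listed transitions and transversions. None of the listed substitutions was synonymous, so these shares, like the transition share, describe protein-altering changes only. Transitions fell on the first base in 187 (44.2%), the second in 228 (53.9%) and the third in 8 (1.89%), beside 47.1%, 50.4% and 2.48% in the code. Transversions fell on the third base in 52 of 283 (18.4%, 14.3% to 23.3%), where the code lets them alter more residues. No code share by position was computed for transversions.

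Stop gains were few and each began at a C-to-T change of the coding strand. Arginine codons Cga became Tga in Spata31 (R645*, KPT tumour 1, chromosome 13 position 64921972, 20 of 32 reads), Necap1 (R48*, KT tumour 1, 18 of 53) and Ints6l, related to a subunit of the Integrator complex (R790*, KT tumour 1, X chromosome, 4 of 11). Glutamine codons Cag became Tag in Cntrob, a centriole protein gene (Q801*, KPT tumour 3, 4 of 10), and Pias3, an inhibitor of STAT3 (Q553*, KPT tumour 4, 5 of 22). The start codon of Gpx2, a glutathione peroxidase gene of the gut epithelium, was lost in KT tumour 3 through atG to atA (M1I, 13 of 29 reads). None of these 6 lay in a run of neighbouring variants. Stop gains were 1.18% of transitions (0.506% to 2.74%), beside 4.13% in the code.

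Lists of genes that act on deaminated bases, mismatches and DNA methylation were examined for transitions, with no share over all genes to set beside their counts. In a list of 20 genes for deaminases and the repair of deaminated or damaged bases 1 had a transition, K171E of the deaminase family gene Apobec4 in KPT tumour 2 (14 of 27 reads). In a list of 20 mismatch repair and polymerase genes 1 had a transition, Polh Y105H in KT tumour 3, on all 91 reads. Polh encodes a polymerase that copies past damaged bases. The change lay in a run of neighbouring variants (described further on) on chromosome 17 from 46152786 to 47372463. All 14 transitions of that run, in 11 genes, had listed allele fractions of 91.3% to 98.7%. A list of 8 DNA methylation genes had 0 transitions, and its Tet3 had a transversion. Of 17 acinar identity genes 1 had a transition, R252Q of the transcription factor gene Gata4 in KPT tumour 3, on 4 of 13 reads and marked as poorly mappable. Since the table starts at a listed allele fraction of 25%, transitions at lower listed fractions would not be seen.

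Of the records that the authors marked as lying in cancer genes, 10 were transitions, in 6 genes. The marked transversions were not counted here, so this number has no share to set beside the 59.9% of transitions among all substitutions. The epithelial transcription factor gene Elf3 had S176L and D115N in KPT tumour 2, on 8 of 11 and 5 of 10 reads. In KT tumour 1 the histone acetyltransferase gene Ep300 had G677E (22 of 48) and the tyrosine kinase gene Abl1 had S602G (14 of 25) and T945M (5 of 12). In KT tumour 5 there was S255N of Notch2, a receptor gene, on 8 of 17 reads. Hmcn1, which encodes the extracellular matrix protein hemicentin, had G4774R, R2546Q and S749G in KPT tumour 2, on 13 of 23, 17 of 38 and 9 of 23 reads. Dner, a Notch-related receptor gene, had R483H in KPT tumour 4, on 2 of 12 reads. Of these changes Elf3 S176L (tCg to tTg), Abl1 T945M (aCg to aTg), Hmcn1 R2546Q and Dner R483H had a CpG within the codon. The marks were empty for the 65 transitions of KT tumours 2 and 3.

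The 423 transitions lay in 331 genes, of which 3 had transitions in 2 tumours and 0 in more. All 3 lie on chromosome 9 and had different changes in KT tumours 1 and 3. They lay where runs of neighbouring variants (described further on) overlapped between these tumours. The runs went from 42622063 to 46221115 in KT tumour 1 and from 42971205 to 46211878 in KT tumour 3. How many genes would coincide there by chance was not tested. The kinase gene Sik3 had S1335N (19 of 49 reads) and T992A (22 of 57), the protease gene Tmprss13 had L72P (16 of 46) and T44A (9 of 18), and Ube4a, which encodes a ubiquitin ligase, had T518M (14 of 29) and R89C (11 of 17), in that order of tumours. Of 334 tumour and gene pairs 279 held 1 transition and 21 held 3 or more. Hmcn2, a hemicentin gene, held 7 in KT tumour 1, with 6 to 40 variant reads and allele fractions from 30.8% to 57.0%. Nes, which encodes the filament protein nestin, held 5 in KT tumour 5, at 34.2% to 64.8%. Akap9, a kinase anchoring protein gene, held 4 in KT tumour 5 at 95% to 96.6%, on 20 of 20, 21 of 21, 63 of 64 and 29 of 29 reads. Clhc1 held 4 in KT tumour 1, at 40.1% to 51.7%, and Veph1 held 4 in KT tumour 5, at 38.1% to 69.1%.

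The transition with the most variant reads in each tumour lay in Adamts13, whose product cleaves von Willebrand factor (KT tumour 1, N587S, 81 of 194 reads), the arginine methyltransferase gene Prmt8 (KT tumour 2, R218Q, 30 of 107), Polh (KT tumour 3), Serpinb3c (KT tumour 4), Akap9 (KT tumour 5, C1353Y, 63 of 64) and Pik3r6, a regulatory subunit gene of PI3K (KT tumour 6, A726V, 22 of 46). In KPT tumours 1 to 4 it lay in Itih3 (Q28R, 44 of 91), the laminin gene Lamc1 (K1183R, 29 of 53), Cntrob and the phospholipid transporter gene Atp11b (V554I, 33 of 62). In KPT tumour 3 Cntrob was tied with Gata4 at 4 variant reads, and was at the lower depth. The leading transitions of KPT tumour 3 thus rested on 4 reads, against at least 22 in every other tumour with a transition.

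The spread of transitions over chromosomes was described beside that of all substitutions. In KT tumour 1 chromosomes 2, 15 and 9 held 43, 37 and 23 of 154, in KT tumour 3 chromosomes 9 and 17 held 43 and 14 of 60, in KT tumour 4 chromosome 1 held 23 of 46, and in KT tumour 5 chromosomes 3, 5 and 7 held 32, 29 and 19 of 93. KPT tumour 2 had 11 on chromosome 1 and 10 on chromosome 14, all of its 21. KPT tumour 4 had 8 of 22 on chromosome 4 and 6 on chromosome 3. Among all substitutions, chromosome 9 held 64 of the 89 in KT tumour 3 and chromosome 2 held 53 of the 211 in KT tumour 1. The 7 of KPT tumour 3 were spread over 6 chromosomes and the 5 of KT tumour 2 over 5.

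Neighbouring variants were grouped in runs, defined as at least 3 listed positions of 1 tumour no more than 2 Mb apart. With records pooled over tumours, runs held 345 of 423 transitions (81.6%, 77.6% to 85.0%) and 152 of 283 transversions (53.7%, 47.9% to 59.4%). KPT tumours 3 and 4 held 49 and 36 of the transversions outside runs, and 7 and 9 of the transitions there. In the 11 runs with at least 10 substitutions, transitions made up 60% to 86.4% of them, with a median of 71.4%. The highest share was in KT tumour 1 on chromosome 2 from 31172022 to 32777518, with 19 of 22, which includes Abl1, and the lowest in KT tumour 5 on chromosome 3 from 87802678 to 89230775, with 15 of 25, which includes Nes. On chromosome 15 of KT tumour 1 from 80923574 to 86033119 it was 23 of 28. KPT tumour 2 had 9 of 11 on chromosome 14 from 54857432 to 56085169, which includes Mcpt8.

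Within tumours the transition share was higher in runs than outside them in KPT tumour 2 (74.1% against 14.3%), KT tumour 3 (71.2% against 33.3%), KPT tumour 4 (54.2% against 20%), KT tumour 1 (73.9% against 67.7%) and KT tumour 5 (73.6% against 68.2%). It was lower in KPT tumour 1 (50% against 70%), KPT tumour 3 (0% of 6 against 12.5% of 56) and KT tumour 4 (60.6% against 66.7%). The mean difference was 13.1 ± 27.9 points (SD, n = 8) and was not separated from 0 (two-sided exact sign-flip p = 0.227, adjusted p = 0.344). Among records with an allele fraction of at least 40% it was -1.29 points. Without KPT tumour 2 it was 6.44 points. Outside runs there were 78 transitions, 24 of them in KPT tumours. Those with the most variant reads, beside Micu3 and Cdh26, were Fbxw19 S413G in KT tumour 1 (47 of 95, poorly mappable), Xkr9 V226I in KPT tumour 1 (42 of 78) and Rsbn1l N527D in KT tumour 5 (35 of 35).

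The number of reads behind a call was also set beside substitution type, first with records pooled over tumours. Under 5 variant reads lay 35 of 423 transitions (8.27%, 6.01% to 11.3%) and 111 of 283 transversions (39.2%, 33.7% to 45.0%). KPT tumours 3 and 4 held 59 and 43 of the substitutions below that limit, with 7 transitions in each, so much of the pooled contrast came from these tumours. In KPT tumour 4 transitions were 57.7% of the 26 substitutions with at least 5 variant reads and 16.3% of the 43 with fewer, and in KPT tumour 2 they were 72.4% of 29 and 0% of 5. In KPT tumour 3 they were 0% of 3 and 11.9% of 59. The mean difference was 17.8 ± 47.6 points (SD, n = 10), higher with more reads in 6 tumours, lower in 3 and 0 in KT tumour 7 (exact two-sided sign-flip p = 0.273, adjusted p = 0.344). It was 10.3 points without KT tumour 2 and 11.8 points without KPT tumour 2.

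**Figure D4:**
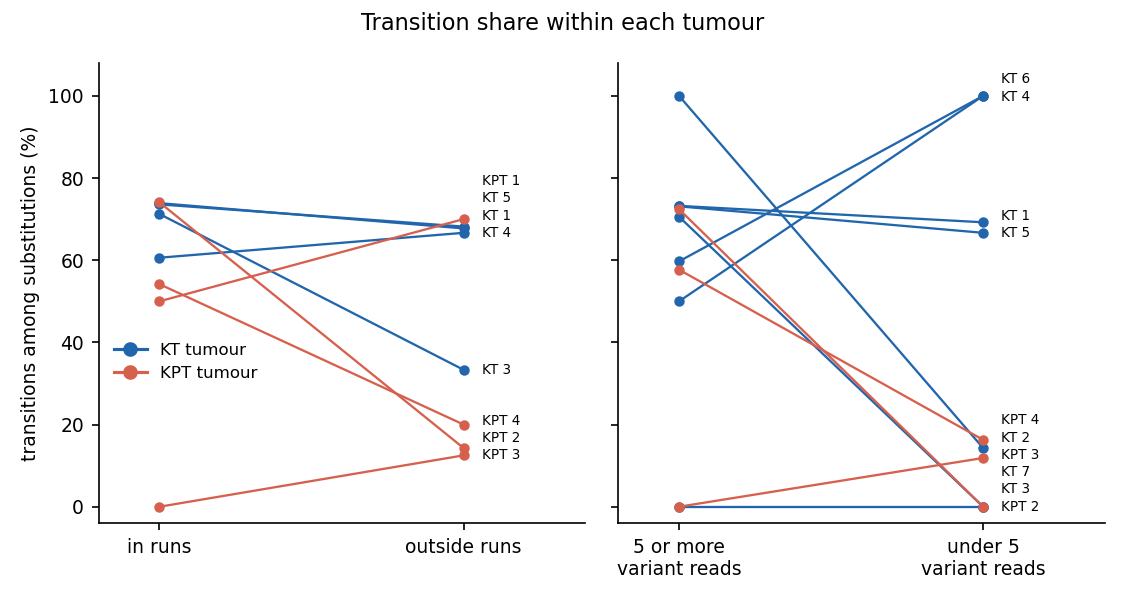
Transitions as a percentage of substitutions (vertical axis) inside and outside runs (left, 8 tumours) and with 5 or more and under 5 variant reads (right, 10 tumours), with a line per tumour in blue for KT and red for KPT. In runs 6 of the 8 tumours lie between 54.2% and 74.1%, while outside runs the values spread from 12.5% to 70%.

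With records pooled over tumours, transitions had a median listed allele fraction of 48.9%, with quartiles of 40.8% and 59%. Pooled transversions had 37%, with quartiles of 27.3% and 51.2%. Below 30% lay 24 transitions (5.67%) and 106 transversions (37.5%). KPT tumours 3 and 4 held 55 and 47 of the 283 transversions, at medians of 27.2% and 28.4%, so these tumours weigh on the pooled contrast. In KPT tumour 3 the transitions had a median of 27.3%. Within tumours the median was higher for transitions in 8 of 10, by 18.3 points in KPT tumour 4 (46.7% against 28.4%), 9.5 points in KPT tumour 2 and 6.3 points in KT tumour 4, and lower by 3.5 points in KT tumour 6 and 1.7 points in KT tumour 5. The mean difference of 4.28 ± 6.29 points (SD, n = 10) had an unadjusted exact two-sided sign-flip p = 0.0488 and failed the correction (adjusted p = 0.244). With records in runs left out it was 6.12 points (exact sign-flip p = 0.0156, adjusted p = 0.0312 over 4 comparisons). Without KPT tumour 4 it was 2.72 points. Depth differed by 3.1 ± 13.5 reads, higher for transitions in 5 tumours and lower in 5 (exact sign-flip p = 0.594, adjusted p = 0.594), and by -0.444 reads without KT tumour 2.

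**Figure D5:**
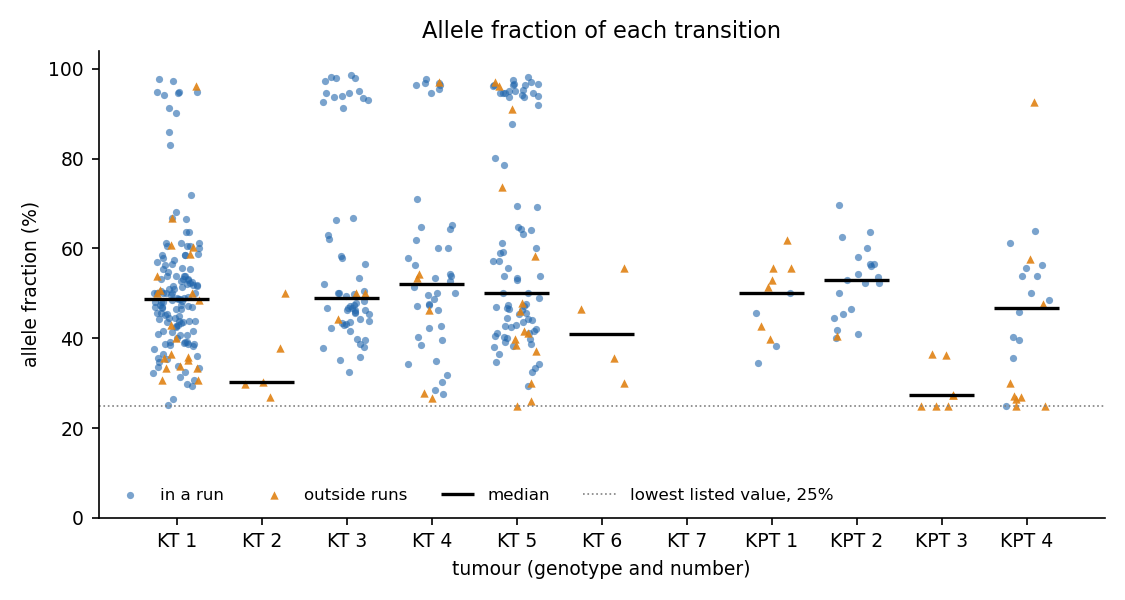
Listed allele fraction in percent (vertical axis) of each transition by tumour, with circles for transitions in runs, triangles for those outside, a bar at the median and a dotted line at the lowest listed value. The medians lie near 50% in KT tumours 1, 3, 4 and 5 and KPT tumours 1 and 2, a separate group above 80% is visible in KT tumours 1, 3, 4 and 5, and KPT tumour 3 stays between 25% and 36.4%.

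The median allele fraction of transitions was 48.8%, 30.2%, 48.9%, 52%, 50% and 41% in KT tumours 1 to 6 and 50%, 52.9%, 27.3% and 46.7% in KPT tumours 1 to 4. KPT tumour 3 and KT tumour 2 were low, and the ranges overlapped. KT tumours averaged 45.1% ± 8.22 (SD, n = 6) and KPT tumours 44.2% ± 11.6 (SD, n = 4), 0.908 points apart (p = 0.848 by two-sided exact permutation, adjusted p = 0.876). The difference turned to -4.73 points without KPT tumour 3 and was 3.895 points without KT tumour 2. Median depth at transitions averaged 31.6 ± 13.4 reads in KT tumours. It averaged 21.75 ± 10.4 in KPT tumours, and exact permutation gave p = 0.252 (adjusted p = 0.743). The gap of 9.83 reads was 6.55 without KT tumour 2 and 5.92 without KPT tumour 3. Allele fractions above 80% were listed for 61 transitions (14.4%): 26 in KT tumour 5, 14 in KT tumour 3, 12 in KT tumour 1, 8 in KT tumour 4 and 1 in KPT tumour 4. They lay on few chromosomes. All 14 of KT tumour 3 were in a single run on chromosome 17. Those of KT tumour 1 lay on chromosomes 2, 4 and X, and those of KT tumour 4 on chromosomes 1 and 11. In KT tumour 5 they lay on chromosomes 4 and 5, with 9 in the chromosome 5 run from 31073236 to 36485384. By class, with records pooled over tumours, the median was 47.5% for C:G to T:A, 50% for T:A to C:G and 47.2% for the 46 arginine CGN changes.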

How the data were processed

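Per the labels' protocols, tumour DNA was made into linked-read exome libraries and captured with a mouse all-exon set. The submitters' processing notes name HISAT2 2.0.4 and GATK, and as builds GRCm38 and mm10, with no order or role. The caller's filters and any normal tissue are not given in the sources used here. The deposited depth is in counts of reads, the deposited allele fraction is a fraction (printed in percent), and the other deposited columns hold bases, codons, annotation and paired read counts. The listed allele fraction was at least 25%, depth at least 10 reads and variant reads at least 2, and library depth beyond the listed sites is unknown. One engineered allele shared by all mice is not reported here.

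Of 739 records 4 repeated a variant. Codons gave the listed residues at all 423 transitions, and 414 lay inside the RefSeq span of their gene. Genotypes were compared by exact permutation of group means, and quantities within a tumour by exact sign flips, with Benjamini-Hochberg adjustment over 6 and 5 comparisons (4 where runs were left out). The tests were tested on simulated data. Members, lists and run limits were chosen with earlier results of these data known. Genes were named by rule: stop or start changes, list genes, cancer gene marks, the most variant reads per tumour, outside runs or at CGN codons, the most transitions per gene, and the lowest BLOSUM62 score. The sites with reference sequence and the genes in 2 tumours were chosen after their values were seen. Alternatives were minimums of depth, reads and allele fraction, left-out runs, families, poorly mappable records and tumours, medians, a log2 scale and a replicate block. Tools were SciPy 1.17.1, pandas 2.3.3, NumPy 2.4.6, Matplotlib 3.10.9 and Biopython 1.88 under Python 3.11.15.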

Additional observations from a re-analysis of the deposited data

Results flagged for a closer look

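The C:G to T:A share of KT tumour 2, at 100% of 5 transitions, lay far from the other 5 KT tumours with a transition, which ranged from 50% to 62.4%. The share of class-changing exchanges in KT tumour 6, at 75% of 4 missense transitions, lay far from the other 5 KT tumours, at 55.9% to 61.0%. Both values rest on 5 or fewer transitions. Among the 21 groups of tumours examined in this way 2 held a marked value, and how many chance alone would mark was not tested.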

How the results depend on the processing

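Of 225 values recomputed for 11 results, 203 kept their direction and their side of the adjusted threshold of 0.05, 20 turned direction and 2 newly passed. Differences between genotypes are KT minus KPT. With records in runs left out, the allele fraction difference of transitions over transversions was 6.12 points and the BLOSUM62 difference 0.81, both past the threshold, while the class-changing share turned to 16.1 points and the CGN share to 1.83 points. At a depth of at least 20 the C:G to T:A share turned to 7.76 points, the class-changing share to 0.173 and the median allele fraction to -5.79. At 5 or more variant reads the class-changing share was 3.68 points, the median allele fraction -3.80 and the depth difference within tumours -0.4375 reads. At an allele fraction of at least 40% the median allele fraction was -0.35 points, the depth difference -0.125 reads, the BLOSUM62 difference -0.0226 and the share in runs minus outside -1.29 points. Without KPT tumours 3 and 4 the class-changing share was 1.397 points and the median allele fraction -6.32. Leaving out 1 tumour at a time gave -11.7 to 10.5 points for the class-changing share, -4.73 to 3.895 for the median allele fraction and -0.444 to 4.44 reads for the depth difference, and turned no other direction. The causes were not tested. With a replicate block that paired tumours 1 to 4 by number, the C:G to T:A difference was -2.13 points (exact sign-flip p = 1) and no p could fall below 0.125. The numbers are not stated to pair tumours, and no tumour correlated best with its own number. In KPT tumour 3 no transition had over 4 variant reads.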

Other observations

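Transitions of 1 gene could lie a few bases apart. In Ptgr1, a prostaglandin reductase gene, Y301H and C298Y lay 8 bases apart in KT tumour 1, on 74 of 77 and 73 of 76 reads. In Olfr44 of the same tumour F146S and A128V lay 54 bases apart, on 45 of 92 and 44 of 93 reads. By distance alone there were 11 pairs of consecutive transitions within 150 bases, in 4 tumours. Depth could differ within a pair, as in Olfr957 of KT tumour 1, with 50 of 94 and 19 of 38 reads at 135 bases. The listed allele fractions of that pair were 51% and 49.6%.

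The genotype was written as phased for 21 of 423 transitions (4.96%). For Hmcn2 V3243I in KT tumour 1 the nearest listed variant of the same tumour lay 237 bases away and for Nes K855R in KT tumour 5 136 bases away, whereas for H121R of the kinase gene Clk1 in KT tumour 1 it lay 100247610 bases away.

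Variant reads of the F1R2 read-pair orientation made up 47.9% of 2252 for C to T, 48.1% of 2050 for G to A, 46.9% of 2004 for A to G and 44.1% of 1681 for T to C on the genome strand.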
